A study of Rattus norvegicus with 24 samples.

Results

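The cytosolic ribosomal protein genes of the rat were examined in RNA from the dentate gyrus, the hippocampal region whose granule neurons receive input from the entorhinal cortex. A probe set belonged to the set when the platform annotation gave it a single symbol beginning with Rpl or Rps (large or small subunit), with the S6 kinases left out. Of 57 such probe sets, for 50 genes, 47 lay above a log2 value of 4 on at least 6 of the 21 arrays. The probe set with the highest mean stood for each gene, which left 41 genes among 8737 single-symbol genes tested. By symbol alone, 29 were counted to the large and 12 to the small subunit. The 29 include the paralog Rpl7l1 and Rpl37-ps2, annotated as a pseudogene. A further 36 probe sets carry several symbols with at least 1 ribosomal protein among them; 34 of these passed the filter and are described as a group without gene names.

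All animals were male Long-Evans rats, an outbred strain, and none was treated. The young rats were 6 months old (8 arrays), and the aged rats were 24 to 26 months old. Aged rats whose water maze learning index lay within the young range formed the aged unimpaired group (6 arrays), and those that performed worse formed the aged impaired group (7 arrays). Tissue was dissected 2 weeks after testing, and 1 array was made per labelled biological replicate. The groups follow behaviour in normally ageing rats, so no allele or agent separates them.

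Ribosomal proteins assemble on ribosomal RNA in the nucleolus into a large subunit, which joins amino acids, and a small subunit, which reads the messenger RNA. Their own messenger RNAs are abundant and begin with a run of pyrimidines, the 5' terminal oligopyrimidine (TOP) tract, through which the mTOR pathway and the RNA-binding protein Larp1 control their translation. In neurons, protein synthesis in the cell body and dendrites is needed for lasting synaptic change, which is why ribosome content is followed in ageing brain.

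The starts of these genes are shown as a description of the tract, and no relation between the tract and the array values was tested. Of the 41 genes, 39 matched a RefSeq gene by identifier and 34 had a promoter sequence in the RefSeq table for GRCr8. A tract was defined as a C followed by 4 bases that are each C or T, on the strand of the gene. It began exactly at the annotated start in 10 of the 34 promoters (29.4%), against 2.52% of 21849 protein-coding promoters. It began within 10 bases on either side of the start in 23 of 34 (67.6%), against 28.5%. By subunit, it began within 10 bases in 16 of 24 large and 7 of 10 small subunit promoters. A tract that begins further upstream and runs into this window is not counted. The windows below run from 40 bases before to 20 bases after the annotated start. Capitals mark the tract that begins nearest to that start and run to its end; pyrimidines just before it stay in lower case.
Rpl19, chr10:83519024-83519083, plus strand: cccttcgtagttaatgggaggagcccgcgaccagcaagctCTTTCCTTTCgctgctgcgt
Rpl22, chr5:168117921-168117980, plus strand: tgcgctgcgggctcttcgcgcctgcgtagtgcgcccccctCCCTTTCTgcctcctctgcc
Rpl35a, chr11:81235002-81235061, minus strand: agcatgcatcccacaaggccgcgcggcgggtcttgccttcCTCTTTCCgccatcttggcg
Rpl39, chrX:121195877-121195936, minus strand: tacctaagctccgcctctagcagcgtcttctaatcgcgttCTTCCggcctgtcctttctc
Rplp0, chr12:46718371-46718430, minus strand: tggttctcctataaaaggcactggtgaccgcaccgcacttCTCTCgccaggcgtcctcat
Rps15, chr7:10068096-10068155, minus strand: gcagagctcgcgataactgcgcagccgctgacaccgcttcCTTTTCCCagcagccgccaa
Rps3a, chr2:173827023-173827082, minus strand: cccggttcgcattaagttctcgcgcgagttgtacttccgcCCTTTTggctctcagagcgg
Rpl27a, chr1:172974533-172974592, plus strand: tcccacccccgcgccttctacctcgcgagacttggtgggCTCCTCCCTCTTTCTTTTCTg
Rps23, chr2:23814477-23814536, plus strand: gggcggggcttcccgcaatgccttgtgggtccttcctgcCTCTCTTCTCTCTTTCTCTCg
Rpl5, chr14:1995206-1995265, minus strand: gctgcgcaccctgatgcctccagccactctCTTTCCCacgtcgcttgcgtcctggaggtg
Rpl13a, chr1:104748894-104748953, minus strand: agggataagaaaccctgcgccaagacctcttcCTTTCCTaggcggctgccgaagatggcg
Rps6, chr5:106420521-106420580, minus strand: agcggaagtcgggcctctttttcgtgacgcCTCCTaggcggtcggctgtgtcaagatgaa
Rpl7l1, chr9:21695678-21695737, plus strand: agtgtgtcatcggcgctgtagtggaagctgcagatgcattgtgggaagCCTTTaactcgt
In Rpl19, Rpl22, Rpl35a, Rpl39, Rplp0, Rps15 and Rps3a the capitals begin at the annotated start itself. Rpl27a and Rps23 have long runs of pyrimidines, marked from 1 base before it; in Rps23 the base before the capitals is a further c. Rpl5, Rpl13a and Rps6 are shown because their values are described in full further on, and in these the nearest tract begins further upstream. Rpl7l1, a paralog of Rpl7 that works in ribosome assembly, has only a short tract after the start. In Rps3, Rpl6 and Rpl7a no such tract begins within 10 bases of the annotated start. Rps3 and Rpl7a do have runs of pyrimidines that begin further upstream and end within 10 bases of it. The mean of the other genes removed 89.6%, 87.3% and 86% of the within-group variance of Rps3, Rpl6 and Rpl7a. In Rpl18 (51.4%) and Rpl11 (46.9%) no such tract begins within 10 bases either, and both are shown for contrast.
Rpl18, chr1:105325230-105325289, plus strand: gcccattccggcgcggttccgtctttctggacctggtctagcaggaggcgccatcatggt
Rpl11, chr5:153560783-153560842, minus strand: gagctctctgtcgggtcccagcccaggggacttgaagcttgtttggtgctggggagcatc
A match describes letters near an annotated start and does not place the real transcription start. Over whole promoters of 300 bases, the sequence CTTCCG on either strand, which can overlap a tract, occurred in 17 of 34 (50%) and in 19.8% of all protein-coding promoters. AAGATGGC occurred on either strand in 4 of 34 (11.8%) and in 3.68% of all. TATAAA occurred on either strand in 4 of 34 (11.8%) and in 13% of all, and CCAAT in 7 of 34 (20.6%) and in 38% of all.

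Across the series, arrays had median log2 values from 3.77 to 3.84, and replicate arrays of a group correlated at 0.996 to 0.998. Granule neuron markers were present: 6 of the 8 on the array passed the filter, while Tdo2 and Pdzd2 never exceeded the filter level. The summed linear signal of all 8 was 9380 to 13900 in young rats, 8730 to 12300 in aged unimpaired rats and 9150 to 11600 in aged impaired rats. Markers of CA1 and CA3 pyramidal neurons were also present, with 8 of 8 passing. Their sums were 10400 to 13300 in young rats, 10800 to 12000 in aged unimpaired rats and 10700 to 12300 in aged impaired rats. Of 14 markers of the meninges, 4 passed, and the summed signal of all 14 was 455 to 679 in young and 379 to 465 in aged unimpaired rats. In aged impaired rats it was 366 to 2300, with replicate 2 at 2300, replicate 3 at 1733, replicate 7 at 765 and the other replicates at 498 or below. The collagens Col1a1, Col1a2 and Col3a1 never exceeded the filter level. Choroid plexus markers (1 of 9 on the array passed) summed to 1800 on young replicate 2, 1137 on aged impaired replicate 7 and 735 on aged unimpaired replicate 3. On every other array their sum was 199.6 or below. Young replicate 9 carries a young title although its accession falls among those of aged unimpaired rats.

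Most of the ribosomal protein genes gave strong signals: the mean log2 value was above 11 for 38 of 41. The values on this array come from different probes with different affinities, so the level of one gene cannot be set against that of another. Rps29, a small subunit protein that binds zinc, had the highest value (14.11 ± 0.02 in young, SD, n = 8). The values of Rpl39 (7.45 ± 0.04 in young), Rpl7l1 (8.76 ± 0.06) and Rpl37-ps2, annotated as a pseudogene (5.11 ± 0.16), were the lowest of the set. The 9 genes that did not pass the filter had mean values of 2.05 (Rps4y2) to 3.50 (Rps27l), and Rps27l exceeded the filter level on 1 array. Just inside the filter was Rpl37-ps2, with a mean of 5.17 over the 21 arrays. The other genes outside it were Rpl3l, Rpl39l1, Rpl30, Rps13, Rpl26l1, Rps4x-ps1 and Rpl28, and the values of Rpl30 (2.45), Rps13 (2.28) and Rpl28 (2.97) belong to these probe sets only.

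The first question was whether ribosomal protein messenger RNA differs between young and aged dentate gyrus, and whether memory impairment in aged rats goes with it. No ribosomal protein gene passed an adjusted p of 0.05 in any comparison, and every difference was small. With limma, 0 of 41 genes passed for aged impaired against young rats, where 0.514% of all 15177 probe sets tested did. For aged unimpaired against young rats 0 of 41 passed, against 1.13% of probe sets. For aged impaired against aged unimpaired rats 0 of 41 passed, and the share of all probe sets was 0%. For both aged groups together against young rats 0 of 41 passed, against 1.11%. At an unadjusted p below 0.05 the counts by limma were 1, 1, 1 and 0 genes in the same order, and 12.4%, 17%, 14.5% and 14.6% of probe sets. The smallest limma adjusted p among the 41 genes was 0.259, 0.291, 0.327 and 0.367. In bulk tissue, fewer cells of a type and less RNA per cell cannot be told apart, and the number of arrays limits the precision.

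The differences were narrow in size. Between aged impaired and young rats they ran from -0.076 to 0.13 on the log2 scale with a median of 0.021, where the median of all 8737 genes was 0.011. For aged unimpaired minus young they ran from -0.12 to 0.057 with a median of -0.019, where all genes had -0.040. For aged impaired minus aged unimpaired they ran from -0.045 to 0.12 with a median of 0.043, where all genes had 0.055. The comparisons with young rats share the young arrays, and all 3 comparisons reuse the same animals, so these values are not independent of each other. Leaving out single arrays moved the median from -0.0032 (without aged impaired replicate 1) to 0.047 (without aged impaired replicate 3) for aged impaired minus young rats. It moved from -0.039 (without aged unimpaired replicate 7) to -0.00022 (without aged unimpaired replicate 8) for aged unimpaired minus young rats, and from 0.021 (without aged unimpaired replicate 8) to 0.071 (without aged impaired replicate 3) between the aged groups.

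The intervals bound how large a change these arrays leave room for, given the deposited scale and the probe set used for each gene. They do not include the effect of other array scales. The 95% interval of the difference lay within 1.2-fold in either direction for 40 of 41 genes in aged impaired against young rats, and for 41 of 41 in aged unimpaired against young and in aged impaired against aged unimpaired rats. The exception was Rpl37-ps2, whose interval reached 0.29 on the log2 scale. A second Rpl7 probe set, which did not stand for the gene, had an interval of -0.64 to 0.029 in aged impaired minus young rats. Over all single-symbol genes the shares were 70.8%, 64.3% and 63.3%, and over genes with a mean above 11 they were 93.1%, 87.3% and 88.1%. A difference above 0.1 in size was seen for 2, 1 and 1 ribosomal protein genes in these comparisons, against 28.3%, 36.1% and 35.9% of all genes.

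**Figure D1:**
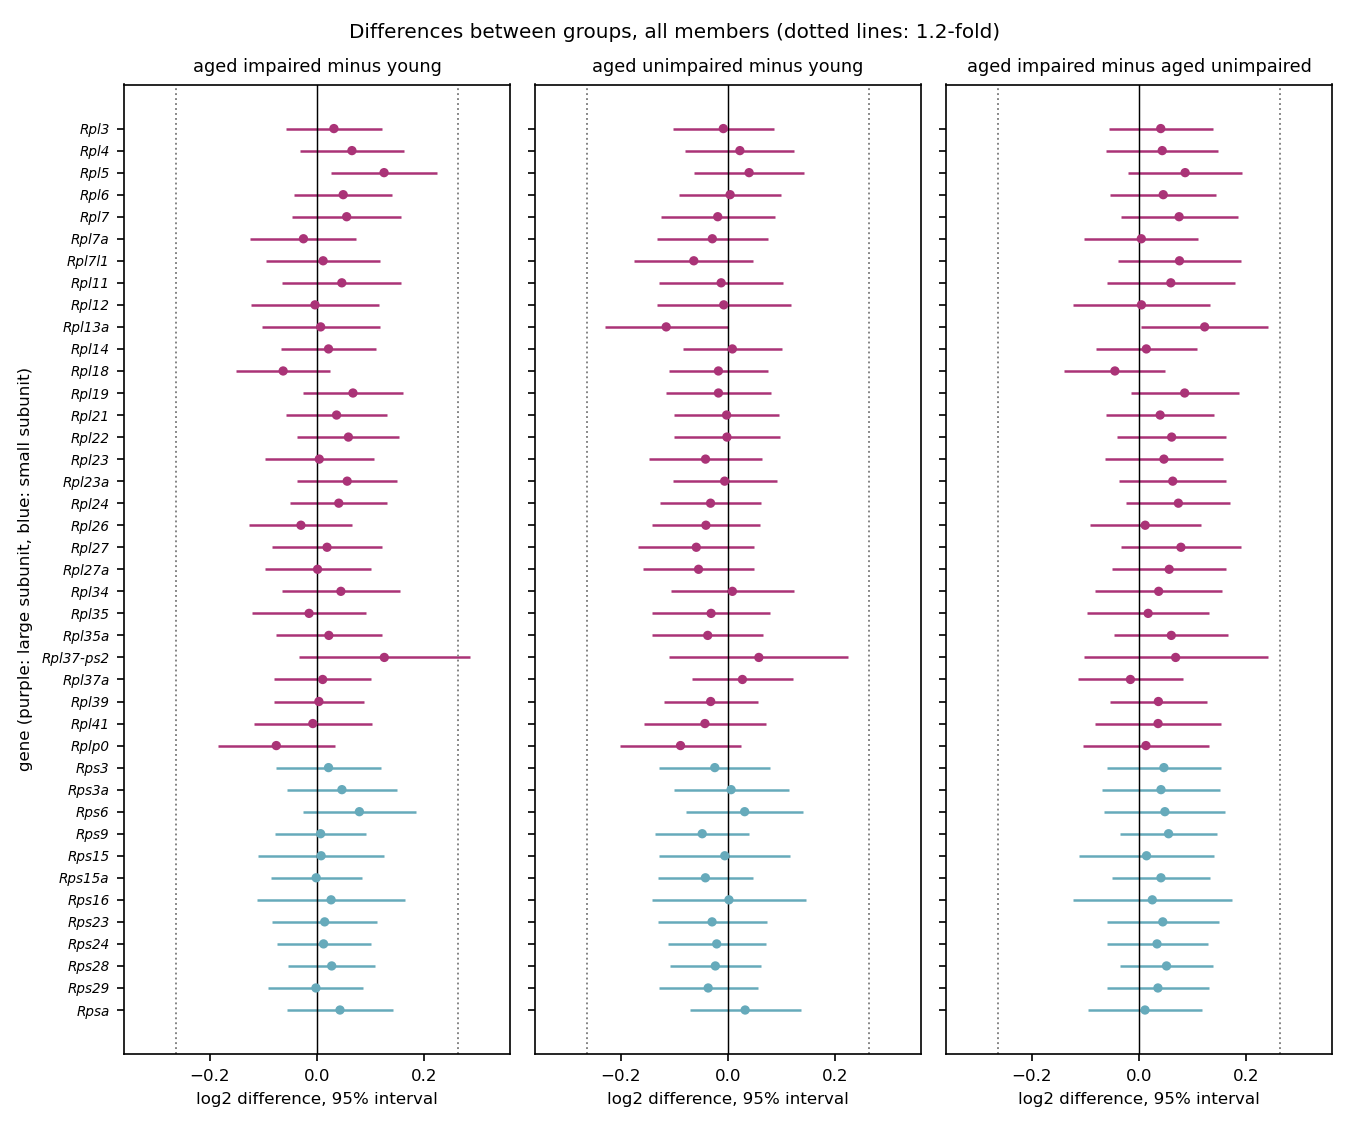
Log2 difference (point) and 95% interval (line) for each of the 41 genes on the y axis, in aged impaired minus young, aged unimpaired minus young and aged impaired minus aged unimpaired rats, from limma; dotted lines mark 1.2-fold. All points lie between -0.12 and 0.13, and the only interval that crosses a dotted line is that of Rpl37-ps2 in aged impaired minus young rats.

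The sign of these small differences depended on how the arrays were scaled. As deposited, 39 of 41 genes had a positive difference in aged impaired minus aged unimpaired rats, against 74.7% of all genes and 88.4% of other genes above 11, but after quantile normalization 10 were positive and 31 negative. For aged unimpaired minus young rats 11 of 41 were positive as deposited (32.8% of all genes), and 35 of 41 were positive after quantile normalization (53.5% of all genes). For aged impaired minus young rats 32 of 41 were positive as deposited (56.2% of all genes), 23 of 41 after centring each array on its median, and 27 of 41 after quantile normalization. No direction for the whole set can therefore be read from these counts.

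Among the proteins of the 5S ribonucleoprotein, Rpl5 had the largest difference of any subunit protein between aged impaired and young rats. Rpl5 and Rpl11 carry 5S ribosomal RNA into the large subunit and, outside it, bind the p53 regulator Mdm2; both are mutated in Diamond-Blackfan anaemia. Rpl5 had log2 values of 12.71, 12.83 and 12.92 (lowest, median and highest) in young rats, 12.78, 12.89 and 12.95 in aged unimpaired rats, and 12.75, 13.01 and 13.09 in aged impaired rats. The 3 groups overlapped: aged impaired replicates 3 and 4 lay below the young mean, and the other 5 lay above the highest young array. The difference between aged impaired and young rats was 0.13 ± 0.05 (SE), an interval of 1.02-fold to 1.17-fold, and limma's adjusted p was 0.259. It was 0.039 ± 0.049 for aged unimpaired minus young and 0.086 ± 0.051 for aged impaired minus aged unimpaired rats. Rpl11 ran from 11.81 to 12.01 in young rats, 11.75 to 12.08 in aged unimpaired rats and 11.78 to 12.07 in aged impaired rats. Its difference from young was 0.046 ± 0.053 in aged impaired and -0.013 ± 0.056 in aged unimpaired rats.

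The stalk of the large subunit recruits the translation factors that hydrolyse GTP, and Rplp0 is the protein that anchors it. Rplp0 had log2 values of 12.145, 12.31 and 12.38 (lowest, median and highest) in young rats, 12.07, 12.22 and 12.27 in aged unimpaired rats, and 12.06, 12.23 and 12.38 in aged impaired rats. All 6 aged unimpaired arrays lay below the young mean, although their range overlapped the young range. The difference from young was -0.089 ± 0.054 in aged unimpaired rats (limma adjusted p = 0.418) and -0.076 ± 0.052 in aged impaired rats (limma adjusted p = 0.604). Rpl12, which sits at the base of the stalk, differed from young by -0.0038 in aged impaired and -0.0081 in aged unimpaired rats.

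Proteins near the catalytic centre and the tunnel through which the new chain leaves showed differences of similar size. Rpl3, which reaches towards the peptidyl transferase centre, had 13.66 ± 0.07 (SD, n = 8) in young rats, 13.65 ± 0.08 (n = 6) in aged unimpaired rats and 13.69 ± 0.09 (n = 7) in aged impaired rats. Rpl4, part of the tunnel wall, differed from young by 0.065 in aged impaired and 0.022 in aged unimpaired rats. Rpl39, which lies near the tunnel exit, had 7.45 ± 0.04, 7.42 ± 0.06 and 7.45 ± 0.10 in the same group order. Rpl23a and Rpl35, which surround the exit and face the targeting machinery, differed between aged impaired and young rats by 0.056 and -0.015. None of these differences passed limma's test.

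In the small subunit, Rps6 had the largest difference between aged impaired and young rats. Rps6 is phosphorylated by the S6 kinases downstream of mTOR, and antibodies to its phosphorylated form are widely used to mark active neurons; these arrays measure its messenger RNA only. Its log2 values were 12.33, 12.44 and 12.53 in young rats, 12.34, 12.49 and 12.54 in aged unimpaired rats, and 12.32, 12.57 and 12.66 in aged impaired rats. The lowest array of each group lay at nearly the same value, and 5 of 7 aged impaired arrays lay above the young mean. The difference was 0.079 ± 0.050 (limma adjusted p = 0.566) for aged impaired and 0.031 ± 0.053 for aged unimpaired minus young rats.

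The decoding centre and the path of the messenger RNA were represented by several small subunit genes. Rps23, a protein of the decoding centre, had 13.39 ± 0.06 in young rats, 13.36 ± 0.07 in aged unimpaired rats and 13.41 ± 0.12 in aged impaired rats. Rps15, in the head near the decoding site, had 12.17 ± 0.08, 12.16 ± 0.07 and 12.18 ± 0.15 in the same order. Rps3, at the channel where messenger RNA enters, differed from young by 0.021 in aged impaired and -0.025 in aged unimpaired rats. Rpsa, also known as the laminin receptor, had 11.11 ± 0.09, 11.15 ± 0.05 and 11.16 ± 0.11. Rps24 and the large subunit gene Rpl35a, both mutated in Diamond-Blackfan anaemia, differed between aged impaired and young rats by 0.012 and 0.022. For all 12 small subunit genes the difference between aged impaired and young rats lay between -0.0021 and 0.079.

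With the deposited values, Rpl13a had the largest difference between the aged groups, 0.12, which fell to 0.044 after quantile normalization, where Rpl18 had -0.12. Besides its place in the large subunit, Rpl13a can be released from it after interferon gamma and block translation of inflammatory messenger RNAs in myeloid cells. Its log2 values were 13.52, 13.54 and 13.64 in young rats, 13.22, 13.44 and 13.66 in aged unimpaired rats, and 13.44, 13.60 and 13.71 in aged impaired rats. Aged unimpaired replicate 4 was the lowest array of all, at 13.22, and aged unimpaired replicate 7, at 13.66, lay above every young array. The difference was -0.12 ± 0.06 for aged unimpaired minus young (limma adjusted p = 0.291) and 0.12 ± 0.06 for aged impaired minus aged unimpaired rats (limma adjusted p = 0.327). It was 0.0068 ± 0.053 for aged impaired minus young rats. Leaving out single arrays moved the aged unimpaired difference from young between -0.16 and -0.071, and the other settings between -0.12 and -0.064.

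**Figure D2:**
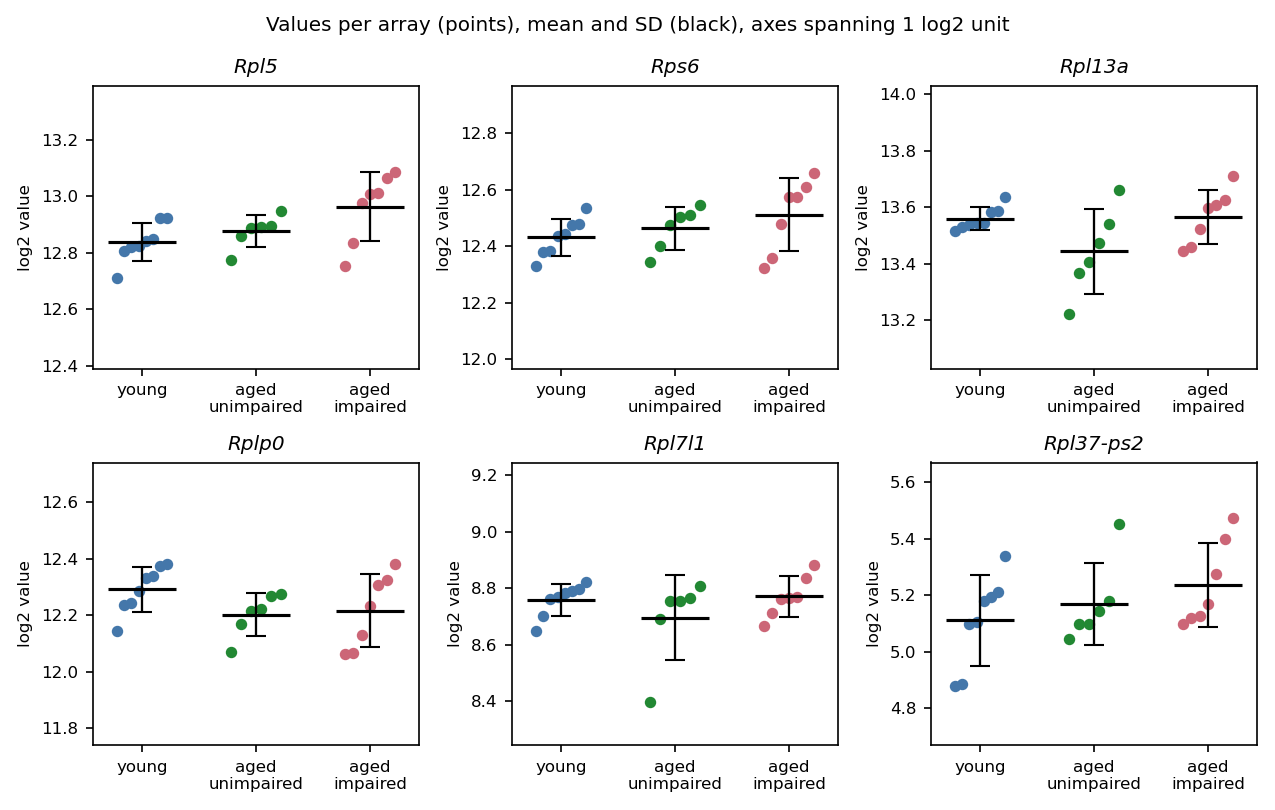
Log2 values of Rpl5, Rps6, Rpl13a, Rplp0, Rpl7l1 and Rpl37-ps2 in young (n = 8), aged unimpaired (n = 6) and aged impaired (n = 7) rats; points are arrays, black lines the mean and SD, and each y axis spans 1 log2 unit, so panels share a scale but not a level. The groups overlap in every panel, and the lowest aged unimpaired points are 13.22 for Rpl13a and 8.40 for Rpl7l1.

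The paralog and the pseudogene were less like the rest. Rpl7l1 had log2 values of 8.65, 8.78 and 8.82 in young rats, 8.40, 8.75 and 8.81 in aged unimpaired rats, and 8.67, 8.77 and 8.88 in aged impaired rats. A single array, aged unimpaired replicate 8, gave the low value of 8.40, and the difference from young in that group was -0.064 ± 0.054 (limma adjusted p = 0.569). Without that array it was -0.0045. A second Rpl7l1 probe set, with a mean of 8.48, had -0.107 ± 0.051 for aged unimpaired minus young rats (limma adjusted p = 0.290). On it, 5 of 6 aged unimpaired arrays lay below the young mean. Rpl7, the partner of Rpl7l1, differed from young by 0.055 ± 0.049 in aged impaired and -0.019 ± 0.051 in aged unimpaired rats. Rpl37-ps2 had 4.88, 5.14 and 5.34 in young, 5.04, 5.12 and 5.45 in aged unimpaired, and 5.10, 5.17 and 5.47 in aged impaired rats. Its difference between aged impaired and young rats, 0.13 ± 0.08 (limma adjusted p = 0.541), was the largest of the 41, with 6 of 7 aged impaired arrays above the young mean. The annotation of a probe set to a pseudogene leaves unsettled whether it reads that locus or transcripts of Rpl37.

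The remaining named genes had differences of at most 0.085 in size. Rpl18 had the lowest difference between the aged groups, -0.045 ± 0.045, and lay at -0.063 ± 0.042 for aged impaired minus young rats. Rpl19 had 0.085 ± 0.048 for aged impaired minus aged unimpaired rats, with 5 of 7 arrays above the aged unimpaired mean. Rpl22, a protein whose loss is compensated by a paralog in mice, had 0.059 ± 0.046 for aged impaired minus young rats. Rpl26 had -0.030 ± 0.046 for aged impaired minus young rats, and Rpl37a had -0.016 ± 0.047 for aged impaired minus aged unimpaired rats. Both of these turned positive when aged impaired replicate 3 was left out, to 0.0050 and 0.0069.

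Several genes were read by more than 1 probe set. Of the 41 genes, 5 had at least 1 further probe set that passed the filter, 6 in all. The sign of the difference between aged impaired and young rats differed between probe sets for 2 of the 5, Rpl7 and Rps24. For aged unimpaired minus young rats it differed for Rpl3 and Rpsa, and for aged impaired minus aged unimpaired rats for Rpl7 only. The second Rpl7 probe set, with a mean of 6.38, had -0.31 ± 0.16 for aged impaired minus young rats (limma adjusted p = 0.460), where the one used had 0.055. The second Rpl7l1 probe set had 0.14 ± 0.05 for aged impaired minus aged unimpaired rats (limma adjusted p = 0.236), where the one used had 0.075 ± 0.055. The 34 probe sets with several symbols gave 0 passing in each comparison by limma. The shares of all probe sets were 0.514% for aged impaired minus young, 1.13% for aged unimpaired minus young, 0% between the aged groups and 1.11% for all aged minus young rats. At an unadjusted p below 0.05 the limma counts in this order were 0, 0, 2 and 0, against 12.4%, 17%, 14.5% and 14.6% of all probe sets.

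The balance between the subunits was then compared, since cells build them in equal number. Genes were counted to a subunit by symbol, so Rpl7l1 and Rpl37-ps2 are in the large subunit means. The mean log2 value of the 29 large subunit genes was 11.89 ± 0.03 (SD, n = 8) in young rats, 11.87 ± 0.06 (n = 6) in aged unimpaired rats and 11.92 ± 0.11 (n = 7) in aged impaired rats. For the 12 small subunit genes it was 12.54 ± 0.04, 12.52 ± 0.06 and 12.56 ± 0.11. The large minus small value per array was -0.641 ± 0.018 in young rats, -0.648 ± 0.024 in aged unimpaired rats and -0.641 ± 0.011 in aged impaired rats. Its size reflects which probes are on the array; only its change between groups is of use. That change was 5.3e-05 for aged impaired minus young, -0.0072 for aged unimpaired minus young and 0.0073 for aged impaired minus aged unimpaired rats, all below the SD of every group. The ranges overlapped in full or in part: -0.668 to -0.617 in young rats, -0.691 to -0.629 in aged unimpaired rats and -0.658 to -0.623 in aged impaired rats. By subunit, the median difference between aged impaired and young rats was 0.021 for large and 0.018 for small subunit genes. For aged unimpaired minus young rats it was -0.018 and -0.023, and for aged impaired minus aged unimpaired rats 0.045 and 0.041.

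**Figure D3:**
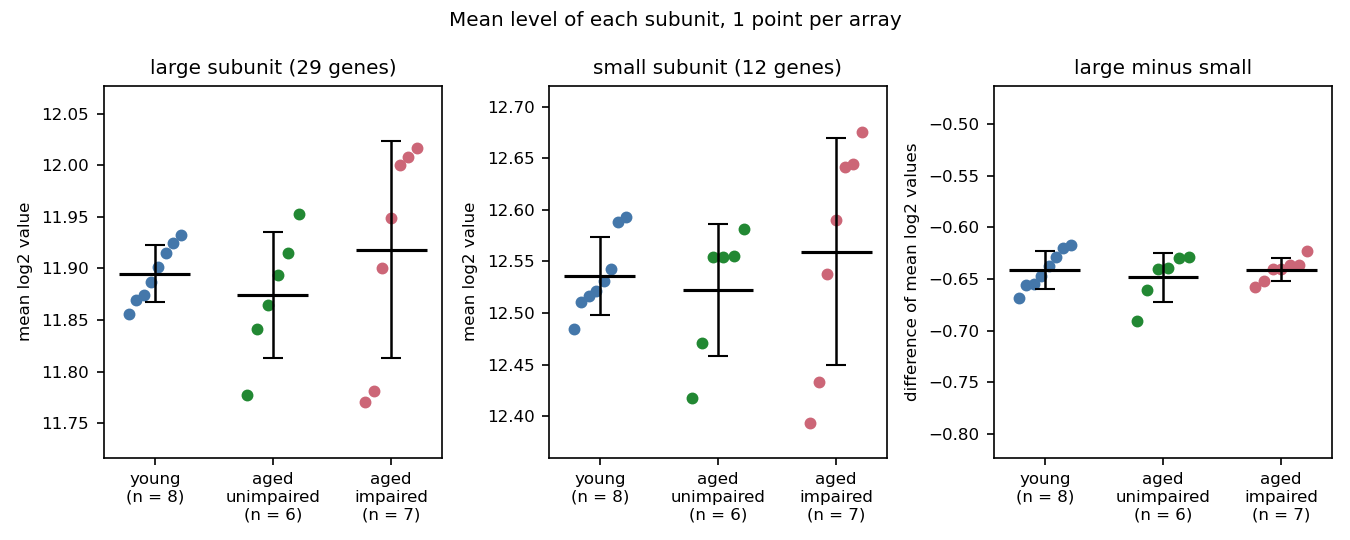
Mean log2 value of the 29 large subunit genes (left), the 12 small subunit genes (middle) and their difference (right), 1 point per array, with the group mean and SD in black. The aged impaired points of each subunit spread most widely (SD 0.11), while the difference stays within -0.691 to -0.617 on all 21 arrays.

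The genes moved together from array to array. For each gene the mean of its own group was subtracted from each value, and the results for the 41 genes were averaged on each array. This array mean held 62.8% of the within-group variance of the 41 genes (60.3% for the large and 72.2% for the small subunit), against 28.2% for other genes with a mean above 11 and 3.22% for all genes. After quantile normalization, which forces the value distributions of the arrays to be equal, the share was 36.2% for the 41 genes, 0.353% for other genes above 11 and 0.375% for all genes. The mean of the other 40 genes removed a median of 75.7% of a gene's within-group variance, and over 50% for 35 of 41 genes. Rpl27a (89.9%) and Rps3 (89.6%) followed the rest most closely. Rpl37-ps2 did not follow it (-40.1%, an increase in variance), and Rpl7l1 (15.3%), Rps16 (29.3%) and Rpl13a (37.8%) followed it least among the others.

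To compare arrays across groups, the mean of the 3 group means was subtracted for each gene instead. These deviations were then averaged over the genes on each array. The array means so obtained spread furthest in aged impaired rats. Replicates 1, 2 and 7 lay at 0.110, 0.126 and 0.104, with 40 of 41 genes above zero on each. Replicates 3 and 4 lay at -0.131 and -0.112, with 1 and 0 genes above zero. Replicate 8 lay at 0.053 and replicate 6 at 0.0031, with 36 and 19 genes above zero. In aged unimpaired rats replicate 8 was low at -0.119, with 2 genes above zero, and the others lay between -0.058 and 0.052. In young rats all 8 array means lay between -0.044 and 0.040. The SD of the array means was 0.030 in young rats, 0.061 in aged unimpaired rats and 0.106 in aged impaired rats.

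**Figure D4:**
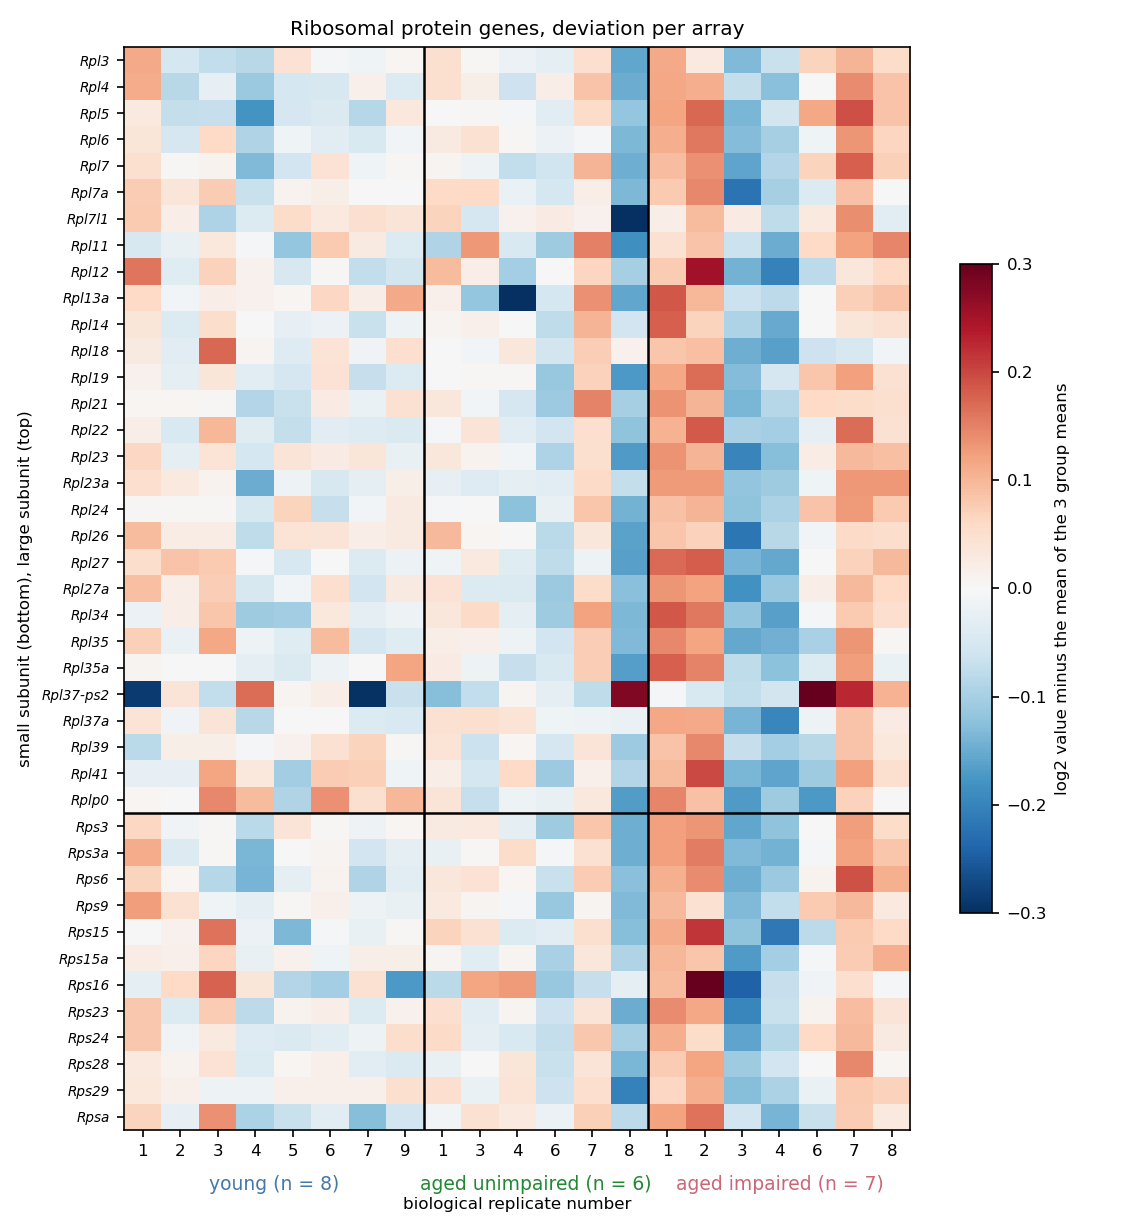
Deviation of each of the 41 genes (y axis, large subunit above the line, small subunit below) on each of the 21 arrays (x axis, by group and replicate number), as the log2 value minus the mean of the 3 group means; red is higher, blue lower, and colours saturate at 0.3 in either direction. Aged impaired replicates 1, 2 and 7 are red and replicates 3 and 4 blue in nearly every gene, while young arrays are pale.

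The same contrast was seen gene by gene, in a comparison chosen after the values were seen and given as a description. Because the genes moved together, the counts below are not independent of each other or of the array means. The median SD of a ribosomal protein gene was 0.054 in young rats, 0.0755 in aged unimpaired rats and 0.117 in aged impaired rats. The SD was larger in aged impaired than in young rats for 40 of 41 genes, all but Rpl37-ps2, against 45.2% of all genes and 63.4% of other genes above 11, but after quantile normalization it was larger for 13 of 41. Rps29 had an SD of 0.021 in young and 0.092 in aged impaired rats, and Rps15a 0.026 and 0.110. After centring each array on its median the count was again 40 of 41, and when single arrays were left out it was 39 to 41. Without the 4 arrays with the highest meningeal markers (aged impaired replicates 2, 3 and 7 and young replicate 5) it was 38 of 41. Quantile normalization brought the SD of the array means to 0.045 in young rats, 0.033 in aged unimpaired rats and 0.045 in aged impaired rats.

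**Figure D5:**
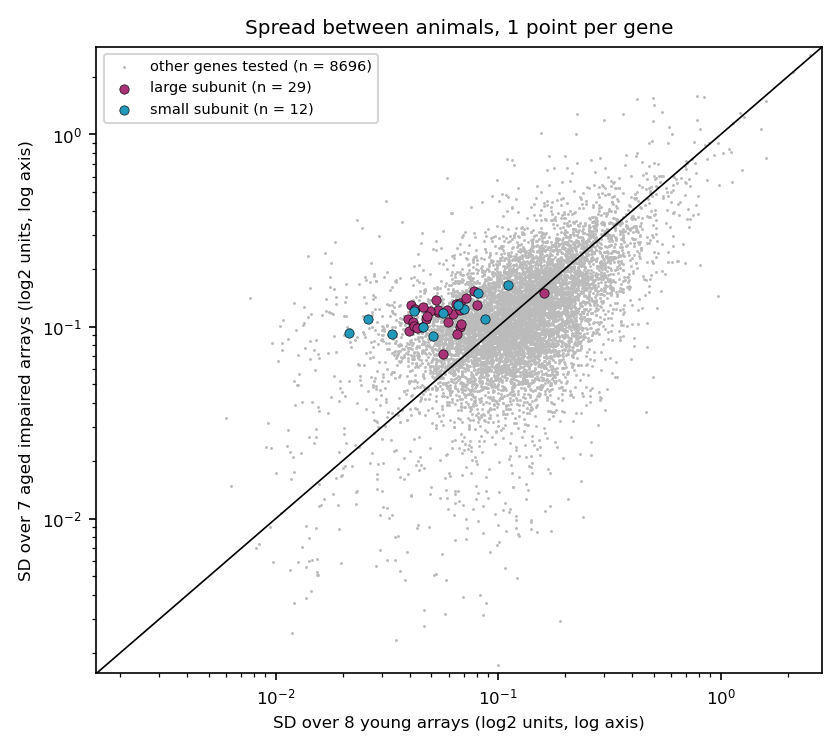
SD over the 8 young arrays (x axis) against SD over the 7 aged impaired arrays (y axis), both in log2 units on log axes, 1 point per gene; coloured points are ribosomal protein genes, grey points the other genes tested, and the line marks equal SD. Of the coloured points, 40 of 41 lie above the line with the deposited values; after quantile normalization 13 of 41 do.

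Other measures of the arrays followed the ribosomal protein mean on some arrays and not on others. The mean deviation of other genes above 11 had the same sign as that of the ribosomal protein genes on 17 of 21 arrays, and its SD was 0.046 in young rats, 0.060 in aged unimpaired rats and 0.066 in aged impaired rats. The difference in log2 signal between 3' and 5' control probe sets of housekeeping genes, a sign of RNA integrity and labelling, was 1.34, 1.38 and 1.36 on aged impaired replicates 1, 2 and 7. It was 1.41 and 1.49 on aged impaired replicates 3 and 4, and 1.45 on aged unimpaired replicate 8. Other arrays did not keep this order. On aged impaired replicate 6 it was 1.505, the highest of that group, with a ribosomal protein mean of 0.0031. On aged impaired replicate 8 it was 1.42, with a mean of 0.053. Young replicate 5 had the highest value of all arrays, 1.53, with a mean of -0.025. By group it was 1.43 ± 0.05 in young rats, 1.40 ± 0.04 in aged unimpaired rats and 1.42 ± 0.06 in aged impaired rats. Meningeal markers were high on aged impaired replicates 2 and 7, where the ribosomal protein mean was high, and on replicate 3, where it was low. Among the aged impaired arrays, oligodendrocyte and astrocyte markers were high on those with a high ribosomal protein mean. The summed signal of oligodendrocyte markers (9 of 9 on the array passed) was 24910, 25960, 26210 and 24110 on aged impaired replicates 1, 2, 7 and 8, and 20790, 19000 and 19950 on replicates 3, 4 and 6. That of astrocyte markers (7 of 7 passed) was 48380, 52020, 51200 and 49980 on replicates 1, 2, 7 and 8, and 38950, 44660 and 41960 on replicates 3, 4 and 6. Over young rats these sums ran from 21300 to 24400 and from 40500 to 46700, and over aged unimpaired rats from 19900 to 23000 and from 40200 to 47500. In aged unimpaired rats, replicate 7 had the highest ribosomal protein mean (0.052) and sums of 20380 and 43290. Replicate 4 (-0.018) had 23010 and 47530, and replicate 8 (-0.119) had 19930 and 40210. Young replicate 1 (0.036) had 21340 and 40470, and young replicate 3 (0.040) had 22930 and 45870. Microglia and macrophage markers (9 of 12 passed) summed to 6646, 8022, 6210 and 5186 on aged impaired replicates 1, 2, 7 and 8. On aged impaired replicates 3, 4 and 6 they summed to 5877, 6312 and 6129. Granule neuron markers summed to 11610, 9867, 11330 and 11150 on aged impaired replicates 1, 2, 7 and 8. On replicates 3, 4 and 6 of that group they summed to 9549, 9153 and 10500. The part of these measures in the spread of the ribosomal protein genes was not tested.

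Groups of genes related to the ribosome were compared in the same way. The 34 ribosomal probe sets with several symbols had array means with an SD of 0.038, 0.066 and 0.110 in young, aged unimpaired and aged impaired rats, and 33 of 34 had a larger SD in aged impaired than in young rats. Other messenger RNAs with TOP tracts (13 of 21 listed were measured) had array means with an SD of 0.042, 0.041 and 0.121, and 12 of 13 had the larger SD in aged impaired rats. Their array mean had the sign of the ribosomal protein mean on 13 of 21 arrays and was highest on aged impaired replicates 2 and 7 (0.263 and 0.172), where meningeal markers were high. Without Vim, whose SD over the aged impaired arrays was 1.01, the SD of the array means was 0.042, 0.054 and 0.086, with the same sign on 16 of 21 arrays. Among elongation and release factors the larger SD lay in aged impaired rats for 9 of 10, but 5 of the 10 are also among the TOP messenger RNAs just given; it did so for 4 of the 5 that are not. It held for 13 of 30 initiation factors, 15 of 32 ribosome biogenesis genes, 5 of 10 genes of RNA polymerase I and 8 of 16 genes of the mTOR pathway. Initiation factor array means had an SD of 0.048, 0.056 and 0.050. After quantile normalization the larger SD lay in aged impaired rats for 17 of 34 ribosomal probe sets with several symbols, 7 of 13 other TOP messenger RNAs and 5 of 10 elongation and release factors, against 43.4% of all genes.

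No gene of these related lists passed limma's test in any comparison. At an unadjusted p below 0.05 in aged impaired against young rats, the counts were 2 of 13 other TOP messenger RNAs, 1 of 32 biogenesis genes, 0 of 10 RNA polymerase I genes, 3 of 30 initiation factors, 0 of 10 elongation factors and 4 of 16 mTOR pathway genes. In aged unimpaired against young rats they were 1, 5, 1, 7, 2 and 2 in the same order, and in aged impaired against aged unimpaired rats 4, 3, 1, 8, 3 and 2. Over all probe sets the shares at this p were 12.4%, 17% and 14.5% for the 3 comparisons. With the deposited values, median differences in aged unimpaired minus young rats were -0.069 for initiation factors and -0.069 for elongation factors. The ribosomal protein genes had -0.019 and all genes -0.040. After quantile normalization the ribosomal protein genes had 0.036 and all genes 0.0082, so no direction is read from these medians.

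The gene closest to the threshold was Eif4g1, the scaffold that joins the cap-binding protein to the small subunit. Eif4g1 had log2 values of 9.79, 9.90 and 10.06 in young rats, 9.61, 9.73 and 9.78 in aged unimpaired rats, and 9.73, 9.76 and 9.95 in aged impaired rats. The aged unimpaired arrays all lay below the lowest young array. The difference was -0.18 ± 0.05 for aged unimpaired minus young (limma adjusted p = 0.0618) and -0.090 ± 0.045 for aged impaired minus young rats (limma adjusted p = 0.428). Deptor, an inhibitor of mTOR, lay above the young mean on 13 of 13 aged arrays, with a difference of 0.29 ± 0.10 for both aged groups together (limma adjusted p = 0.148). Nip7, a factor in ribosomal RNA processing, had -0.31 ± 0.12 for aged unimpaired minus young rats (limma adjusted p = 0.192). Polr1d, a subunit of RNA polymerases I and III, had -0.11 ± 0.05 in the same comparison (limma adjusted p = 0.238), and Eef2k, the kinase that inhibits elongation factor 2, had -0.21 ± 0.12 (limma adjusted p = 0.388). Vim, an intermediate filament gene whose messenger RNA carries a TOP tract, had 0.64 ± 0.29 for aged impaired minus young rats (limma adjusted p = 0.375), with an SD of 1.01 over the aged impaired arrays.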

How the data were processed

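Total RNA from the dentate gyrus of single rats was hybridized to Affymetrix rat genome expression arrays. The authors deposited log2 values, 1 per probe set and array, and per the submitters' processing notes made them with GCRMA, whose version is not given in the sources used here. The labels describe 24 arrays; quality control by the submitters removed 1 array from each group, and the columns of these 3 are empty, so 21 were used. Probe sets above a log2 value of 4 on at least 6 arrays were tested (15177 of 31042, controls left out). The 3 groups were fitted together with limma 3.58.1 in R 4.3.3 (18 residual degrees of freedom), with Benjamini-Hochberg adjustment over every probe set tested and a threshold of 0.05. The fit was tested on simulated data with independent noise per probe set and with differences larger than those of the ribosomal protein genes. That test does not show whether differences as small as theirs would be found. Values after ± are standard errors for differences and SDs for group levels. P-values measure the spread between labelled biological replicates.

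The members, the gene lists and the comparisons were chosen with earlier results of these data known. Genes named are those with the 3 largest differences in each direction per comparison, the 3 highest and 3 lowest levels, the stalk proteins, Rpsa and Rps6, paralogs with their partners, genes mutated in Diamond-Blackfan anaemia, and up to 3 whose probe sets disagree in sign. The genes named from related lists had the largest difference in size of their list in the comparison given first for them. Not every such gene is named, and some lists had larger differences in other comparisons. Other genes, given as examples by their place in the ribosome or for their spread, were chosen after their values were seen. Same-numbered arrays of different groups were checked for pairing: the correlation of their deviations was above 0.1 in 4 of 17 pairs, so the numbers were not used as pairs. The alternatives were other array scales, filters, weights, variance models, probe set rules and members, single arrays left out, and a block on the replicate number. Promoter sequences and gene identifiers came from RefSeq tables of the GRCr8 assembly.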

Additional observations from a re-analysis of the deposited data

Results flagged for a closer look

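In 63 groups (the 19 named genes, the mean over all 41 genes and the large minus small value, each in 3 groups), 5 arrays stood apart from the rest of their group by Dixon's criterion, which chance alone meets in about 1 in 20 groups. Rpl7l1 in aged unimpaired replicate 8 had a log2 value of 8.397, where the nearest other array had 8.691. On the same array Rpl37-ps2 had 5.451, where the nearest other had 5.18. In young rats, Rpl35a had 12.1 in replicate 9 (nearest 11.99), Rpl18 had 11.32 in replicate 3 (nearest 11.19) and Rpl26 had 13.17 in replicate 4 (nearest 13.27).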

How the results depend on the processing

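No ribosomal protein gene passed in any comparison under any of the 34 settings; the smallest limma adjusted p over them was 0.0862 for aged impaired minus young, 0.119 for aged unimpaired minus young, 0.17 for aged impaired minus aged unimpaired and 0.0554 for all aged minus young rats. Of 1072 values compared, 1068 kept their sign and their side of the threshold, or moved by less than the spread between arrays. The difference of Rpl26 in aged impaired minus young rats turned from -0.030 to 0.005016 without aged impaired replicate 3, and single arrays moved it from -0.04494 to 0.005016. That of Rpl37a between the aged groups turned from -0.016 to 0.006857 without aged impaired replicate 3 and to 0.01609 without replicate 4, over a range from -0.03578 to 0.01609. Leaving out aged impaired replicate 1 also turned the median over the 41 genes in aged impaired minus young rats from 0.021 to -0.003166, and quantile normalization turned it to 0.03609 in aged unimpaired minus young rats and to -0.02019 between the aged groups. The large minus small difference for aged unimpaired minus young rats moved from -0.0072 to 0.01259 when probe sets with several symbols were added, an alternative chosen after seeing the data. The count of genes with a larger SD in aged impaired than in young rats, 40 as deposited, was 13 after quantile normalization; the cause was not tested. With a replicate block on 19 arrays, where the numbers do not pair the animals, 0 genes passed and the median difference was 0.026 for aged impaired minus young, -0.0063 for aged unimpaired minus young and 0.036 for aged impaired minus aged unimpaired rats. Low signal limits Rpl37-ps2 most, and the 9 genes below the filter were not tested.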
